A study of Mus musculus with 4 samples.

Results

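A set of 7 genes of the GABA-A receptor family was followed across the 4 libraries of a fosTRAP-seq experiment on mouse hippocampus after sleep deprivation (SD). They are the alpha subunit genes Gabra2, Gabra3, Gabra4 and Gabra5, the beta subunit genes Gabrb1 and Gabrb2, and the delta subunit gene Gabrd. They were taken from the deposited gene count table by gene name, which found 7 of 7 among 28193 genes, and all 7 passed the filter on low counts that left 22338 genes tested. A further 7 GABA-A subunit genes of the table were used for comparison.

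fosTRAP-seq sequences RNA bound to tagged ribosomes that were immunoprecipitated from neurons marked while c-Fos was active. The labels describe male mice of genotype cFos-Cre:Ribotag and dorsal hippocampus. The study's methods instead describe male C57BL/6J mice, 3 to 5 months of age, injected with a virus carrying a 4-hydroxytamoxifen (4-OHT) dependent Cre under c-Fos control together with a Cre-dependent virus for the HA-tagged ribosomal protein mRpl22, and microdissected CA1. All mice of both groups received the viruses and 4-OHT and were sleep deprived for 5 h on day 0, when the tag was set. On day 7 the SD group was sleep deprived again for 5 h and the non-sleep deprived (NSD) group was not. Each group holds 2 libraries, each from a pool of 5 mice, in batches 1 and 2. The tag therefore marks neurons active around the first bout in both groups, and the comparison asks how ribosome-bound RNA in those neurons differed after the second bout. There was no group without sleep deprivation on day 0 and no input RNA was analysed here.

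Library totals ran from 153511705 to 195910235 estimated counts. The 8 CA1 pyramidal markers were detected in every library and summed to between 6046 and 6596 CPM (counts scaled to a common library total). Most of this came from Camk2a and Slc17a7, which other excitatory neurons express too, and the other 6 summed to between 1188 and 1456 CPM, beside 21.7 to 23.7 CPM for the 4 CA3 markers and 47.1 to 58.6 CPM for the 5 dentate granule markers. Markers of cells other than pyramidal neurons were also present. The 8 interneuron markers summed to between 781 and 877 CPM, the 7 oligodendrocyte lineage markers to between 1127 and 1381 CPM and the 6 astrocyte markers to between 452 and 502 CPM, and none of these markers was at 0 in any library.

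GABA-A receptors are chloride channels built from subunits around a central pore, and they carry most fast inhibition in the brain. A receptor usually joins alpha and beta subunits, whose interface binds GABA, with a gamma or a delta subunit. Receptors with alpha2 or alpha3 and a gamma subunit gather at inhibitory synapses and carry brief currents. Receptors with alpha5, abundant in hippocampal pyramidal cells, and receptors that join alpha4 with delta lie mostly outside synapses and carry a steady, tonic current, although alpha5 is found at some synapses too. The beta subunits take part in both kinds.

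A short stretch of coding sequence shows how the 4 alpha genes differ at the benzodiazepine binding site, where the alpha2, alpha3 and alpha5 subunits carry a histidine and alpha4 an arginine. The windows below hold 45 bases, all from coding exons on the minus strand, read 5′ to 3′ from GRCm39, with the codon for that residue in capitals. They show which of the 4 alpha genes encode the histidine and which encodes the arginine. The windows do not show the make-up or the sensitivity of any receptor.
Gabra2, chr5:71171827-71171871: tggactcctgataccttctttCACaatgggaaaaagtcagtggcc
Gabra3, chrX:71544753-71544797: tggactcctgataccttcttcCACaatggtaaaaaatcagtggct
Gabra4, chr5:71798474-71798518: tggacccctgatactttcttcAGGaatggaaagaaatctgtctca
Gabra5, chr7:57138618-57138662: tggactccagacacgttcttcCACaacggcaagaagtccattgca
The Gabra2 window matched Gabra3 at 41 of 45 bases, and the Gabra4 and Gabra5 windows each matched it at 34. The capital codon is residue 129 of Gabra2, 154 of Gabra3, 135 of Gabra4 and 136 of Gabra5, counted from the start codon. The window lies in exon 5 of 10 in the Gabra2 and Gabra3 canonical transcripts, in exon 4 of 9 in Gabra4 and in exon 6 of 11 in Gabra5.

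Gabra3 was the only member called higher after the second sleep deprivation, and its call was lost under some choices of processing. For Gabra4 and Gabra5 the SD libraries both lay below the NSD libraries without passing the test, and Gabra2, Gabrb1, Gabrb2 and Gabrd, whose groups overlapped, did not pass it either. Of the 7 members, 1 was called higher and 0 were called lower by edgeR's quasi-likelihood test, which required a fold change above 1.2 and an adjusted p below 0.05. At an unadjusted p under 0.05 there were 1 higher and 2 lower members, and DESeq2 also called 1 higher and 0 lower. Among all 22338 genes tested, a share of 0.77% was called higher and 2.33% lower. At an unadjusted p under 0.05 the shares of all genes were 6.86% higher and 12.2% lower, and DESeq2 called 3.0% higher and 5.8% lower. For the members the median log2 fold change was 0.03, with 5 above 0 and 2 below, beside a median of -0.02 over all genes tested (10533 above 0 and 11805 below) and of 0.02 over the protein-coding genes among them, the class of all 7 members. The libraries of the groups did not overlap for 3 members, with SD below NSD for 2 and above for 1. Over all genes tested the SD libraries were both below in 27.5% and both above in 22.0%, so lying apart in this way was common.

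**Figure D1:**
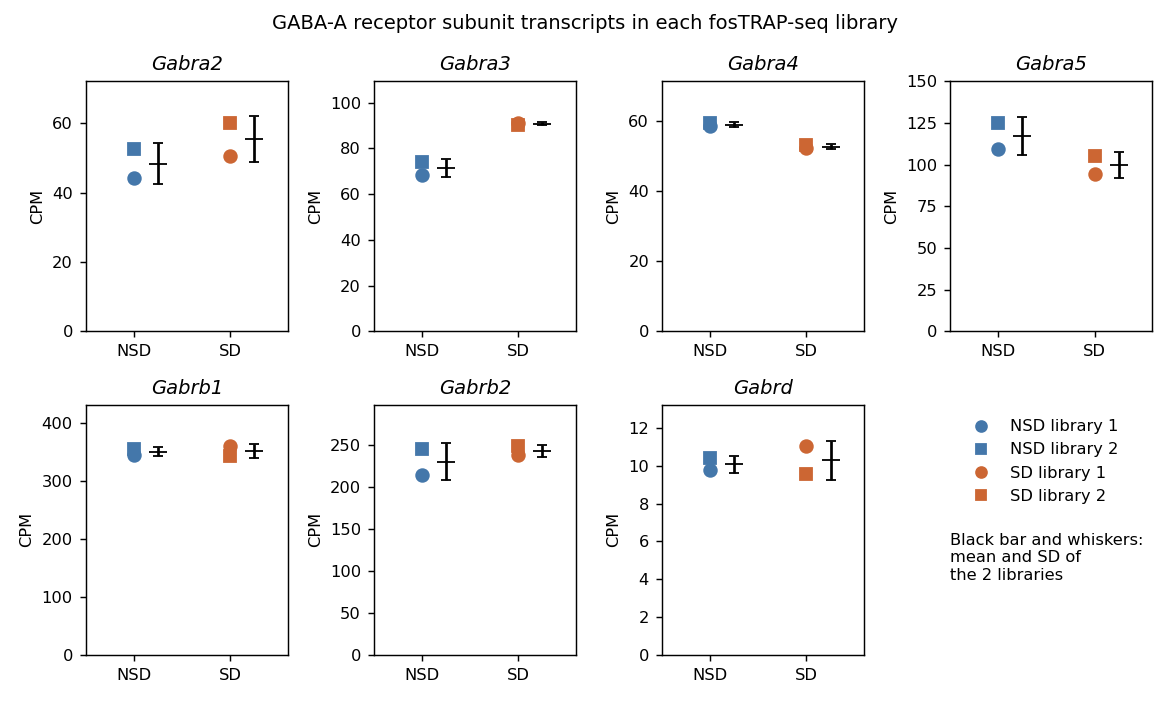
Ribosome-bound RNA of the 7 GABA-A receptor subunit genes in each library, as CPM on scaled library totals (y axis, from 0, with its own range for each gene), by group, with points for libraries and black bars with whiskers for the group mean and standard deviation (n = 2). The SD points lie above both NSD points for Gabra3 (91.3 and 90.3 against 68.5 and 74.3 CPM), below them for Gabra4 and Gabra5, and overlap them for the other 4 genes.

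Among the synaptic alpha subunits, Gabra3 encodes alpha3, an X-linked subunit best known from monoaminergic neurons and the reticular thalamus. Its level was 68.5 and 74.3 CPM in NSD libraries 1 and 2 and 91.3 and 90.3 CPM in SD libraries 1 and 2. Both SD libraries were above both NSD libraries, and the SD libraries lay close together. The group means were 71.4 ± 4.07 CPM (mean ± standard deviation over libraries, n = 2) and 90.8 ± 0.697 CPM (n = 2), a 1.27-fold difference. On the log2 scale the fold change was 0.35 (SE 0.0684, 95% interval 0.19 to 0.50, edgeR adjusted p = 0.0413), larger than the spread between replicates. The call was lost without NSD replicate 1 (edgeR adjusted p = 0.0763, with the lone NSD library assumed to vary like the SD libraries) and when genes were filtered in other ways, with an adjusted p of up to 0.0654 under those filters. The change was 0.41 in batch 1 and 0.28 in batch 2, and in the fit with the batch number as a replicate block the edgeR adjusted p was 0.00137.

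Gabra2 encodes alpha2, the main alpha subunit at synapses on the axon initial segment of pyramidal cells. It stood at 44.2 and 52.5 CPM in NSD and at 50.7 and 60.2 CPM in SD. The groups overlapped, and in both groups the library of batch 2 was the higher one. Within each batch the SD library was higher by 0.20 on the log2 scale. The fold change of 0.20 (SE 0.107, 95% interval -0.05 to 0.44, edgeR adjusted p = 0.376) did not pass, while the fit with the replicate block gave an adjusted p of 0.0375 at a 1.15-fold difference, under the fold threshold of 1.2. The fold change moved with single libraries, to 0.33 without NSD replicate 2, 0.31 without SD replicate 1, 0.11 without NSD replicate 1 and 0.08 without SD replicate 2.

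Of the subunits found mostly outside synapses, Gabra5 was the most abundant of these 3 members. Its gene encodes alpha5, which carries much of the tonic inhibition of CA1 pyramidal cells. Gabra5 was at 109 and 125 CPM in NSD and at 94.2 and 105 CPM in SD. The groups did not overlap, but the higher SD library came within a few CPM of the lower NSD library. The means were 117 ± 11.4 CPM and 99.7 ± 7.73 CPM (n = 2 each), or -0.23 on the log2 scale (SE 0.0888, 95% interval -0.44 to -0.03, edgeR adjusted p = 0.198). With the replicate block the adjusted p was 0.0142, and the difference of 0.851-fold stayed within the fold threshold, so the gene was not called in either fit. The log2 fold change was -0.13 without NSD replicate 2, -0.16 without SD replicate 1 and -0.30 without either of the other two libraries in turn.

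Gabra4 encodes alpha4, which pairs with delta in dentate granule cells and other neurons. It was at 58.3 and 59.4 CPM in NSD and 52.1 and 53.1 CPM in SD. Both SD libraries were lower, by 0.16 on the log2 scale in each batch. The log2 fold change was -0.16 (SE 0.0639, 95% interval -0.31 to -0.02, edgeR adjusted p = 0.213, and 0.0800 with the replicate block).

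Gabrd encodes delta, the subunit that takes the place of gamma in many extrasynaptic receptors. It was the least abundant member, at 9.77 and 10.4 CPM in NSD and 11.02 and 9.57 CPM in SD. The groups overlapped and the direction differed between batches, at 0.17 in batch 1 and -0.12 in batch 2 on the log2 scale. Its fold change was 0.03 on the log2 scale with a 95% interval from -0.23 to 0.29 (edgeR adjusted p = 0.931).

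The beta subunit genes had the highest CPM of the 7. Gabrb1, which encodes beta1, was at 345 and 356 CPM in NSD and 359.5 and 342 CPM in SD. The lowest and the highest of these values were both SD libraries. Its log2 fold change was 0.0015 (95% interval -0.18 to 0.18, edgeR adjusted p = 0.996). Gabrb2, which encodes beta2, was at 215 and 246 CPM in NSD and 238 and 249 CPM in SD. These groups overlapped too, with a log2 fold change of 0.08 (95% interval -0.12 to 0.28, edgeR adjusted p = 0.722). That value was 0.0126 without NSD replicate 1 and 0.18 without NSD replicate 2.

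**Figure D2:**
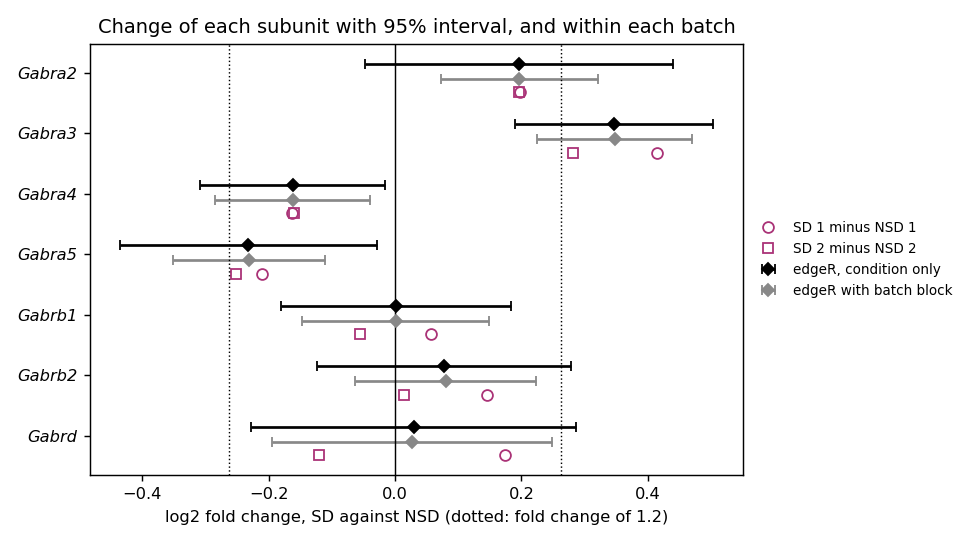
Log2 fold change of SD against NSD for the 7 members (x axis), with 95% intervals, from the edgeR fit on condition alone and from the fit with the batch number as a replicate block. Open symbols are the differences within each batch and dotted lines mark a fold change of 1.2. Gabra3 lies farthest to the right at 0.35 and Gabra5 farthest to the left at -0.23, and the intervals of Gabrb1, Gabrb2 and Gabrd, and on condition alone that of Gabra2, cross 0.

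To compare levels between genes, CPM were divided by the length of each gene's merged exons in kilobases. On this per-length scale the mean over the 4 libraries was 21.6 for Gabrb2 and 20.8 for Gabrb1, whose ranges overlapped. Gabra5 at 12.0 and Gabra3 at 11.7 followed, also with overlapping ranges. Gabra2 at 5.79 and Gabra4 at 5.54 overlapped as well, and Gabrd was lowest at 1.63, apart from all the others. Of the gamma subunit genes used for comparison, Gabrg3 was at 6.17, within the range of Gabra2, and Gabrg1 at 0.641 was below Gabrd. The order depended on the length used: with the length of the Ensembl canonical transcript, Gabra5 was at 31.97, Gabrb2 at 31.0, Gabrb1 at 25.5, Gabra3 at 22.1, Gabra4 at 13.3, Gabra2 at 8.21 and Gabrd at 5.26 CPM per kilobase.

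**Figure D3:**
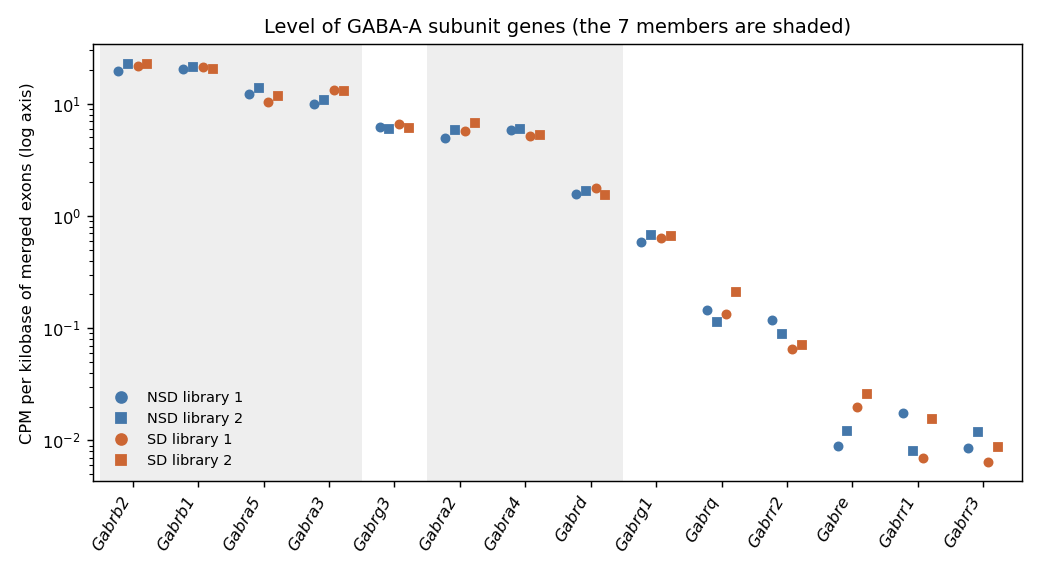
CPM per kilobase of merged exon length (y axis, log scale) for the 7 members, shaded, and 7 other GABA-A receptor subunit genes (x axis), with points for the 4 libraries. The members run from 1.63 for Gabrd to 21.6 for Gabrb2 as means over the libraries.

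Each of the 4 alpha subunit genes was also expressed as a share of their summed per-length level. In NSD, Gabra5 held the most at 37.5% ± 0.843 and Gabra3 came next at 29.9% ± 0.528 (n = 2). In SD their order was turned, with Gabra3 at 36.97% ± 1.92 and Gabra5 at 31.0% ± 1.03 (n = 2). Gabra4 had a share of 16.96% ± 1.05 in NSD and 14.7% ± 0.444 in SD, and Gabra2 of 15.6% ± 0.736 and 17.3% ± 1.33 (n = 2 each). The turn was present in both batches on this length scale. On canonical transcript lengths there was no turn, with SD means of 24.7 CPM per kilobase for Gabra3 and 29.4 for Gabra5, so the order in SD depended on the length used, whereas the change in the ratio of these genes did not involve length.

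The synaptic and extrasynaptic members were then set against each other within each library, as the log2 ratio of the summed CPM per kilobase of Gabra2 and Gabra3 to that of Gabra4, Gabra5 and Gabrd. The ratio was -0.39 and -0.37 in NSD and 0.12 and 0.10 in SD. Both SD libraries were above both NSD libraries. Among ratios of all pairs of genes tested, 50.9% lay apart in either direction. The standard deviation was 0.0151 between NSD libraries and 0.0135 between SD libraries, each from only 2 values. The difference between the groups was 0.49, a 1.402-fold higher ratio in SD. It was 0.51 in batch 1 and 0.47 in batch 2. With 2 libraries a group an exact permutation test cannot go below p = 0.333, and since the genes were chosen with earlier results known no p is given for this sum. The difference was 0.54 with Gabra2 left out of the synaptic sum. These sums hold members only and not all synaptic subunits.

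**Figure D4:**
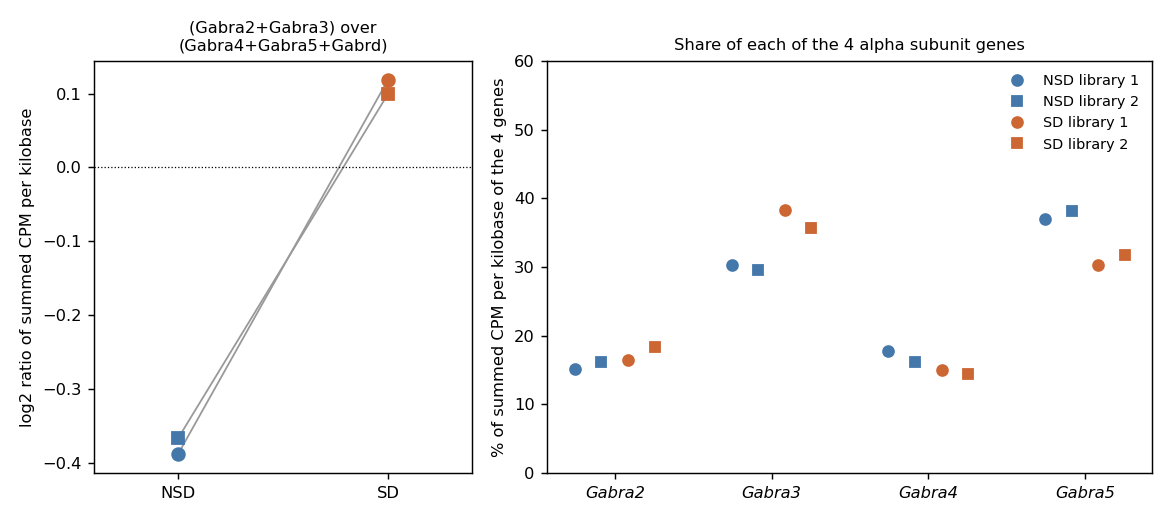
Left, log2 ratio (y axis), for each library, of the summed CPM per kilobase of the synaptic members (Gabra2 and Gabra3) to that of the extrasynaptic members (Gabra4, Gabra5 and Gabrd), by group, with grey lines joining libraries of a batch. Right, the share in % of each of the 4 alpha subunit genes in their summed CPM per kilobase, by library. The SD libraries lie at 0.12 and 0.10 and the NSD libraries at -0.39 and -0.37 on the left, and Gabra3 and Gabra5 change places on the right, on merged exon length.

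Ratios between single members showed where that difference lay. The ratio of Gabra3 to Gabra5 differed most, by 0.58 on the log2 scale, with 0.62 in batch 1 and 0.53 in batch 2. The ratio of Gabra3 to Gabra4 differed by 0.51 and that of Gabra2 to Gabra5 by 0.43. Of the 21 pairs of members, 13 had ratios that did not overlap between the groups, including 5 of the 6 pairs with Gabra3 and 8 of the 15 pairs without it. Among all pairs of the genes tested, 50.9% did not overlap in this way. Pairs that share a gene are not independent.

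Of the 7 other subunit genes, 5 passed the count filter and 0 were called by edgeR on condition alone, with the replicate block or by DESeq2, and none had an unadjusted p under 0.05. Gabrg3, at 73.5 and 71.0 CPM in NSD and 78.0 and 72.0 CPM in SD, had a log2 fold change of 0.05, and Gabrg1 one of 0.04. Gabrr2, Gabrq and Gabre were each at or below 1.12 CPM in every library, and Gabrr1 and Gabrr3 did not pass the filter.

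Several of these genes lie in clusters, and log2 fold changes on chromosome 5 had different signs without any of them being called. Positions are those of the deposited table on mm39. Chromosome 5 holds Gabra2 (71114940 to 71253192, minus strand), Gabra4 (71727092 to 71815651, minus strand) and Gabrb1 (71815456 to 72306380, plus strand), whose log2 fold changes were 0.20, -0.16 and 0.0015. Gabra5 lies on chromosome 7 (57057420 to 57159807, minus strand) beside Gabrg3. Gabrb2 lies on chromosome 11 (42310584 to 42519855, plus strand). Gabra3 is on the X chromosome (71476287 to 71700454, minus strand) between Gabre and Gabrq, and Gabrd on chromosome 4 (155469437 to 155482569, minus strand). Annotated exons of Gabra4 and Gabrb1 share 101 bases on opposite strands. The library kit keeps strand, but whether the counting used it is not given in the sources used here, and without it reads from these shared bases cannot be assigned. Gabrb1 had 631% of the counts of Gabra4.

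The genes whose proteins hold these receptors at the membrane were taken as a list of 26 for the inhibitory postsynapse and receptor trafficking. Of them 20 had a log2 fold change above 0 and 6 below, beside 10533 above and 11805 below over all genes tested. The median of the list was 0.08, beside the 0.02 of protein-coding genes. DESeq2 called 2 higher and 0 lower, beside 3.0% and 5.8% of all genes. At an unadjusted p under 0.05 in edgeR there were 5 higher and 1 lower, beside 6.86% and 12.2%. By its adjusted p, edgeR called 1 higher and 0 lower, beside 0.77% and 2.33%. The called gene was Lhfpl4, which encodes a GABA-A receptor auxiliary subunit needed to anchor receptors at inhibitory synapses. It rose from 129 and 132 CPM in the NSD libraries to 183 and 163 CPM in the SD libraries, or by 0.41 on the log2 scale (SE 0.0789, edgeR adjusted p = 0.0400). Its call was lost without NSD replicate 1, NSD replicate 2 or SD replicate 1 (edgeR adjusted p = 0.0683, 0.0536 and 0.0801) and under the other choices of genes tested. Fits without a library take the spread from the other group alone, and why the call was lost there was not tested.

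With the replicate block 2 genes of that list were called higher, beside 2.99% of all genes called higher and 8.47% lower in that fit. The second was Insyn1, which encodes an inhibitory synapse protein, at 178 and 185 CPM in NSD and 216 and 219 CPM in SD (log2 fold change 0.27, edgeR adjusted p = 0.0865 on condition alone and 0.0128 with the block). The members called in that fit were again 1 higher, Gabra3, and 0 lower. Shisa7, another auxiliary subunit gene, stood at -0.20 on the log2 scale with an edgeR adjusted p of 0.217 and was called in neither fit.

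A further 3 lists cover the rest of the GABA pathway. Of 6 genes for the GABA-B receptor and its KCTD partners, 0 were called by edgeR on condition alone, with 1 higher and 1 lower at an unadjusted p under 0.05. Kctd8, which encodes an auxiliary subunit of that receptor, was called higher with the block and by DESeq2 (log2 fold change 0.37, edgeR adjusted p = 0.0821 and 0.00813 with the block). Of 9 genes that set the chloride gradient and of 8 genes of GABA synthesis, transport and breakdown, 0 were called by edgeR in either fit or by DESeq2, with 1 and 0 genes at an unadjusted p under 0.05. Slc12a5, the chloride exporter KCC2 of mature neurons, had a log2 fold change of 0.04, and Gad1, a GABA-synthesizing enzyme, of -0.03.

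Cell type markers moved with the groups in places. The shares of all genes to read them against are 8.47% called lower with the block, 5.8% called lower by DESeq2 and 12.2% lower at an unadjusted p under 0.05. Of the 8 CA1 pyramidal markers, 0 were called by edgeR on condition alone, with 3 lower at an unadjusted p under 0.05, and 3 were called lower with the block and by DESeq2. These were Fibcd1, Wfs1 and Neurod6, with log2 fold changes of -0.35, -0.39 and -0.35. Of the 8, 5 were below 0 and 3 above, with a median of -0.10, and Mpped1 was higher in both SD libraries at 0.14 on the log2 scale without being called. Summed CA1 marker levels were 6263 and 6596 CPM in NSD and 6046 and 6511 CPM in SD, overlapping. The 6 endothelial markers were all below 0 with a median log2 fold change of -0.86. Summed, they were at 37.0 and 51.3 CPM in NSD and at 30.3 and 20.1 CPM in SD, and 0 were called on condition alone, 5 with the block and 4 by DESeq2. The 5 were Cldn5, Flt1, Tek, Tie1 and Cdh5, which were also those at an unadjusted p under 0.05. The summed interneuron markers were at 877 and 837 CPM in NSD and 863 and 781 CPM in SD, with 0 of the 8 called on condition alone or by DESeq2 and Sst called lower with the block (edgeR adjusted p = 0.347 on condition alone and 0.0118 with the block). At an unadjusted p under 0.05 there were 1 higher and 0 lower of these 8, the higher being Pvalb at 0.26 on the log2 scale. Of the 7 oligodendrocyte lineage, 6 astrocyte, 5 microglia, 5 dentate granule and 3 tested CA3 markers, 0 were called by edgeR in either fit or by DESeq2, with 0 at an unadjusted p under 0.05. The part of any of these in the values of the members was not tested. In pooled tissue of this kind, fewer cells of a type and less RNA per cell cannot be told apart.

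The genes whose values over the 4 libraries were closest to those of Gabra3, after each gene's log2 CPM was centred on its mean, were Sod2 (root mean square difference 0.0142), Spred1 (0.0148) and Mis12 (0.0153). Gabra3 itself deviated from its mean by a root mean square of 0.179. Of the 22338 genes tested, 192 were closer to Gabra3 than 0.05, over only 4 libraries.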

How the data were processed

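The deposited table holds expected counts, estimated per gene by expectation maximization: the authors aligned paired reads of 150 bases with STAR to mm39 and quantified them in Partek Flow on Ensembl release 110, and the submitters' processing notes name Partek and mm39. Values need not be whole and were rounded. Totals were 162943863 and 153511705 for NSD and 181914848 and 195910235 for SD. The 22338 of 28193 genes whose count was above 5 throughout were tested, SD against NSD on condition alone, with edgeR 4.0.16 (R 4.3.3) by the quasi-likelihood test, TMM scaling (factors 0.965 to 1.02) and Benjamini-Hochberg adjustment over all genes tested. Genes were called at a fold change above 1.2 with an adjusted p below 0.05. DESeq2 1.42.0 was an alternative. CPM use TMM-scaled totals, and exon lengths are from GENCODE on GRCm39, the same assembly as mm39 but a newer annotation. The table's starts count from 1 and its ends lie 1 base past the last base (of 27962 genes matched to GENCODE, 14922 ended so, 410 ended on the last base and 12630 had another end in the newer annotation), so 1 was taken off. The fits were tested on simulated counts.

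The labels give a batch number that equals the replicate number, and it was taken to pair the libraries. Deviations from group means of libraries of the same batch correlated at 0.178 over genes, which is weak and does not establish a pairing. Libraries of a group differed by more than counting noise (chi-square per degree of freedom 99.6 for NSD and 53.4 for SD). Each library is a pool, so p-values measure the spread between pools. Members, lists and sums were chosen with earlier results of these data known. All members are named. Of each further list, counts are given and the genes called in either edgeR fit are named, other subunits may be named, and for members called the 3 genes with the closest pattern. Shisa7, Slc12a5, Gad1, Camk2a, Slc17a7, Mpped1 and Pvalb fall outside this rule and were chosen after their values were seen. The 4-OHT dose of these mice is not given in the sources used here. Some genes of the lists are not reported here, and the lists were counted without them.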

Additional observations from a re-analysis of the deposited data

How the results depend on the processing

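Members called higher were 1 on condition alone, with the replicate block, with DESeq2 size factors and with DESeq2 (with or without the block), and 0 with no count filter, with edgeR's filterByExpr and with protein-coding genes only, where Gabra3 had adjusted p-values of 0.0524, 0.0654 and 0.0619. Leaving out each library in turn, which leaves 1 library in its group and takes the spread from the other group, gave 0 to 1, and 0 without NSD replicate 1. Its log2 fold change ran from 0.32 to 0.41 over 11 alternatives. Gabrb1 turned to -0.0194 with protein-coding genes only and ran from -0.0343 (without SD replicate 1) to 0.0484 when each library was left out, and Gabrd from -0.0759 (without SD replicate 1) to 0.14. The same range was 0.08 to 0.33 for Gabra2, -0.16 to -0.15 for Gabra4, -0.30 to -0.13 for Gabra5 and 0.0126 to 0.18 for Gabrb2. The cause was not tested. Over all genes, 172 were called higher and 520 lower, against 668 and 1891 with the replicate block (pairing by batch), 671 and 1296 with DESeq2, 724 and 1427 with DESeq2 and the block (added after seeing the data), 50 and 80 with no count filter, 1 and 0 with filterByExpr and 51 and 39 with coding genes only. Without each library in turn they ran from 124 to 308 higher and from 78 to 1955 lower (124 and 78 without NSD replicate 1, 292 and 1955 without SD replicate 1, 308 and 775 without SD replicate 2). Mean CPM per kilobase with the longest transcript and with the canonical transcript (added after seeing the data) was 8.03 and 8.21 for Gabra2, 20.5 and 22.1 for Gabra3, 10.9 and 13.3 for Gabra4, 22.3 and 31.97 for Gabra5, 25.5 with both for Gabrb1, 30.4 and 31.0 for Gabrb2 and 3.03 and 5.26 for Gabrd. The synaptic to extrasynaptic difference was 0.49 (the replicate block gives 0.49 by construction, with 1 library of each group in a batch), 0.54 without Gabra2, and 0.48 to 0.50 when each library was left out. The block changed no call among members. With 2 pooled libraries a group, the intervals of Gabrb1, Gabrb2 and Gabrd allow differences of up to about 0.29 on the log2 scale. Estimated counts carry no record of reads shared between overlapping genes.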
